A study of Oryctolagus cuniculus with 12 samples.

Results

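The comparison covered all 12 libraries of the series and set the mean of 3 illuminated groups of rabbit cornea against the controls of the same study. All 9 illuminated libraries (3 each labelled blue light, GL and RL) and all 3 control libraries entered, chosen by their labels alone. The question was which transcripts differed from control in the same direction under every kind of light. Animals of 6 months fed a normal diet were used, with no strain or genotype named. The labels put the same treatment, 6 weeks of light, on the controls as well, and the labels name neither the light that the controls received nor any wavelength, intensity or time of day. GL and RL are not spelled out in the labels and are used here as names only. Nothing in the labels ties libraries to separate animals, so every p-value measures the spread between these libraries, which may be technical.

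The cornea is the transparent window at the front of the eye. Its layered epithelium expresses the keratin pair KRT3 and KRT12, its stroma is built by keratocytes from collagen and small proteoglycans, and its inner endothelium pumps fluid out of the stroma. Visible light crosses all of these layers, and the eye surface also carries light-sensitive proteins of the opsin family and a circadian clock.

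Corneal markers were abundant throughout. KRT12 ranged from 14397 to 21889 CPM (gene counts scaled by library size) in control and from 16438 to 27608 CPM in the light libraries, the keratocyte proteoglycan KERA from 3783 to 6538 and from 3841 to 6715 CPM, and the endothelial transporter SLC4A11 from 446 to 758 and from 316 to 840 CPM. Other eye tissue was present unevenly: the lens crystallin CRYAA stood between 205 and 5202 CPM, and 3 libraries (control 2, blue light 1 and GL 3) were highest in retinal genes. Total counts ran from 40.9 to 64.7 M, or about 10.8 to 17.1 M sequenced fragments at about 3.79 counts a fragment, and no difference between light and control passed the test (49.4 ± 6.61 M in control, 56.3 ± 9.36 in light, SD, n = 3 and 9; two-sided exact permutation p = 0.255 over 220 splits, adjusted p = 0.509 over 2 library measures). A set of 5 libraries (control 1, all blue light and RL 1) held 2389 to 2563 genes at counts of 1 to 20, against 767 to 1461 in the other 7. For this measure too, light and control did not differ beyond their spread (1633 ± 814 and 1729 ± 757 genes, SD, n = 3 and 9; exact permutation p = 0.85, adjusted p = 0.85).

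Across 18171 genes tested, 2 passed a Benjamini-Hochberg adjusted p of 0.05 in edgeR's quasi-likelihood test of the light mean against control, which is 0.011% of the genes. One was higher and one was lower (0.0055% each), and both had the same sign in blue light, GL and RL. By sign alone, 6990 genes (38.5%) went the same way in all 3 light groups, 3414 higher (18.8%) and 3576 lower (19.7%). The 3 differences share the same 3 controls, so nothing is read from that share. At least 2-fold in every light group and in one direction were 422 genes higher (2.32%) and 247 lower (1.36%). At an unadjusted p below 0.05 there were 763 genes (4.2%), 314 higher (1.73%) and 449 lower (2.47%). Of these 763 genes, 688 had a common sign (3.79% of the genes tested). A full separation, with all 9 light libraries above or all below the 3 controls, was seen for 126 genes (0.693%), 47 above (0.259%) and 79 below (0.435%), and on the FPKM values for 133 (0.732%). No count in any control and a count in every light library was found for 5 genes (0.0275%), and the reverse for none.

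The gene that rose was LOC100339782, annotated as histone-lysine N-methyltransferase 2A, the product of KMT2A. KMT2A methylates lysine 4 of histone H3 and keeps developmental genes transcribed. LOC100339782 had no count in any control library. It stood at 10.2, 10.7 and 7.43 CPM in blue light, at 6.25, 9.95 and 6.86 in GL and at 9.77, 8.37 and 4.35 in RL. The lowest light library therefore lay well clear of the controls. The light mean of 8.21 ± 2.15 CPM (SD, n = 9) was at least 36.4-fold higher than a floor of 3 fragments per control library, which equals 0.225 CPM (edgeR adjusted p = 0.000143). The 3 light groups did not differ from one another for this gene beyond their spread (adjusted p = 0.878 for any difference among them, edgeR).

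LOC100339782 is placed at 75393 to 85790 of the sequence NW_003159449.1 on the plus strand, a span of 10398 bases. Its nearest listed neighbours there were TTC36, 152 bases away, the entry annotated as TMEM25, and IFT46. ARCN1 lay farther off on the same side, at 32459 bases. Entries annotated as the T-cell surface glycoprotein CD3 epsilon lay on the other side, the nearest at 21803 bases. IFT46, which takes part in transport within cilia, stood at 24.7 CPM in control and 20.4 in light. ARCN1, a coat protein of transport vesicles, stood at 194 and 208 CPM. The neighbours tested did not pass the threshold. KMT2A itself is listed on another sequence, at 503350 to 593746, a longer stretch than that of LOC100339782. Whether LOC100339782 is a whole gene or a part of one was not tested. KMT2A stood at 155, 158 and 188 CPM in control and between 137 and 186 CPM in light, so the 2 ranges overlapped. Reads of near-identical copies can be assigned to one or the other, so the copies were also summed. The sum was 167 ± 18.1 CPM in control and 168 ± 17.7 in light (SD, n = 3 and 9; log2 difference 0.01, two-sided exact permutation p = 0.955, adjusted p = 0.955 over 2 sums). On the FPKM values the sum was 9.91 ± 1.13 in control and 11.3 ± 1.62 in light (log2 difference 0.18, exact permutation p = 0.205, adjusted p = 0.341). The mean of the called copy, 8.21 CPM, is smaller than the SD of the summed CPM, so the CPM sum could not have shown its rise. That reason does not hold for FPKM, where the light mean of the copy, 2.02, is larger than either SD of the sum. Whether reads moved between the copies was not tested.

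The gene that fell was LOC100344261, annotated as similar to adenosylhomocysteinase (AHCY). AHCY clears S-adenosylhomocysteine, the by-product of methylation reactions, and so keeps methyltransferases active. LOC100344261 stood at 24.8, 43.4 and 25.8 CPM in control. It stood at 6.03, 5.91 and 4.65 CPM in blue light, at 7.18, 4.59 and 6.85 in GL and at 5.0, 7.37 and 9.95 in RL. All 9 light libraries lay below the lowest control, and control 2 was the highest library. The mean fell from 31.3 ± 10.5 to 6.39 ± 1.70 CPM (SD, n = 3 and 9; log2 −2.30 ± 0.23 SE, edgeR adjusted p = 0.00227), with log2 differences of −2.50 in blue light, −2.34 in GL and −2.07 in RL. Without the 3 libraries highest in retinal genes the log2 value was −2.04 and the call ended (edgeR adjusted p = 0.216).

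LOC100344261 lies at 53025870 to 53027353 of NC_013690.1 on the plus strand, a span of 1484 bases. The nearest listed gene, IL1RAPL2, lies 97869 bases away. AHCY itself stood at 498, 536 and 480 CPM in control and between 431 and 824 CPM in light. It was higher in GL (log2 0.60) and RL (0.43) than in control but not in blue light (−0.01), and did not pass the threshold. The 7 entries with this annotation summed to 537 ± 37.8 CPM in control and 656 ± 148 in light (SD, n = 3 and 9; log2 difference 0.26, exact permutation p = 0.227, adjusted p = 0.455). The called copy, at 31.3 CPM in control, is below the SD of the sum in control and far below that in light. AHCY alone stood at 505 ± 28.2 CPM in control and 648 ± 147 in light (SD, n = 3 and 9). The sum therefore could not have shown the fall of the copy apart from AHCY.

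**Figure D1:**
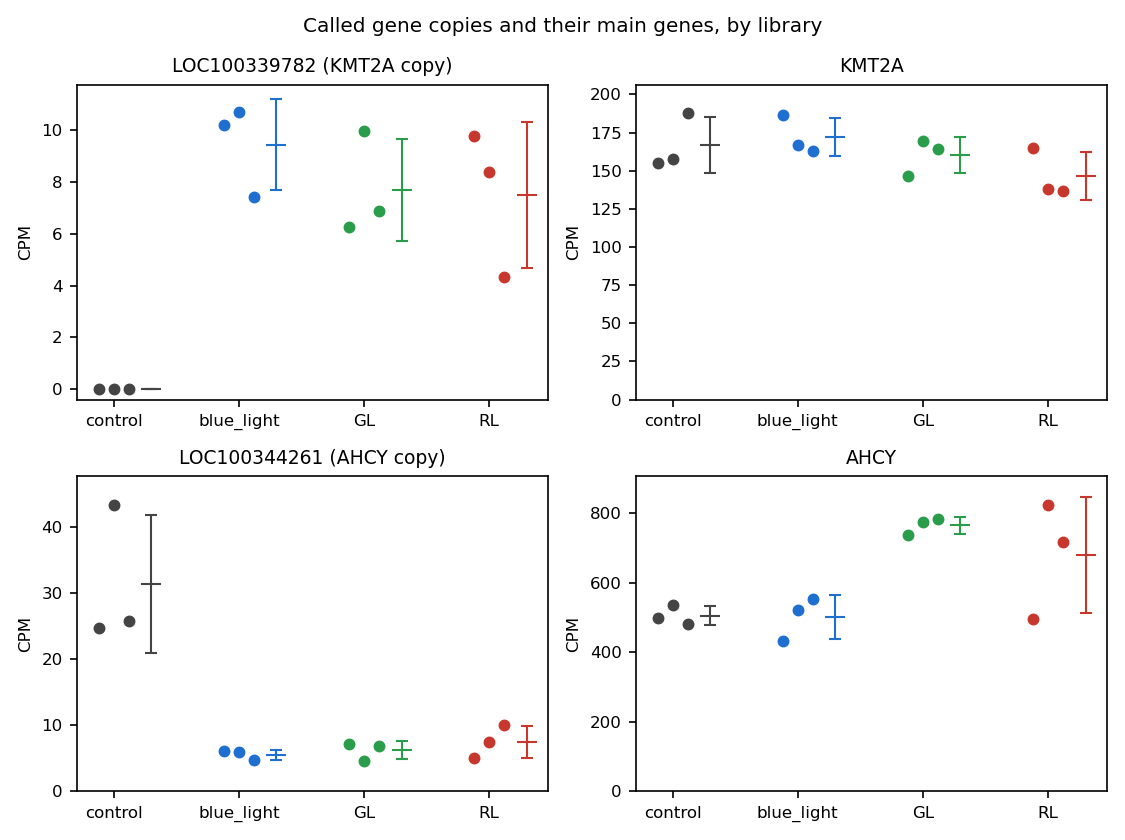
CPM in each library (points) with the mean and SD of 3 libraries (bars) for the 2 called gene copies on the left and for their main genes on the right. LOC100339782 is 0 in every control and at least 4.35 CPM in each light library, LOC100344261 is 24.8 CPM or more in control and at most 9.95 in light, and KMT2A and AHCY overlap between control and light.

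By edgeR no gene with a symbol other than a LOC number passed the threshold over all genes. The 12 higher and 12 lower genes with the smallest p, a common sign and full separation follow as values without a claim of change. Their fitted log2 differences ranged from 0.45 to 3.49 for the higher and from −2.35 to −0.38 for the lower genes. Of this set DESeq2 called CCNB1, RARRES1, ETS1, SVBP, CCDC158 and LENEP (adjusted p = 0.000938 to 0.0320), beside 55 of all 18171 genes. With array weights, limma-voom called LENEP (adjusted p = 0.0408), beside 19 of all 18171.

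Among the higher genes, CCNB1 encodes cyclin B1, the partner of CDK1 at entry into mitosis. It stood at 8.86, 4.99 and 6.84 CPM in control and at 11.01 to 22.1 CPM (median 14.8) in light. Its log2 difference was 1.19 ± 0.27, with 1.04 in blue light, 1.20 in GL and 1.32 in RL. HAUS2, a subunit of the augmin complex that builds spindle microtubules, stood at 3.61 to 5.46 CPM in control and 6.28 to 12.2 in light. Both genes were picked for having no overlap, and the gap between the highest control and the lowest light library was small.

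RARRES1, a gene induced by retinoic acid, stood at 277, 242 and 235 CPM in control. In light it ranged from 297 to 463 CPM with a median of 375. The log2 difference was 0.58 ± 0.14, lowest in blue light (0.37) and highest in RL (0.81). The entry LOC100346910, annotated as cytochrome P450 26A1, which breaks down retinoic acid, was picked after its values were seen. It stood at 47.8, 32.0 and 19.4 CPM in control. In light it stood at 46.1, 76.3 and 67.6 CPM in blue light, 136, 80.1 and 157 in GL and 82.3, 112 and 99.8 in RL. Blue light 1 lay just below control 1, and the other 8 light libraries lay above all controls (log2 1.47 ± 0.29, edgeR adjusted p = 0.408). DESeq2 and limma-voom with array weights called this entry (adjusted p = 0.000134 and 0.0314).

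Further genes on the higher side were transcription factors, carriers and adaptors. ETS1, a transcription factor of epithelial and vascular cells, stood at 6.43 to 7.03 CPM in control and 8.44 to 12.9 in light. BATF2, an interferon-inducible leucine zipper factor, stood at 7.81 to 10.6 and 11.1 to 26.1 CPM. SLC25A30, a mitochondrial carrier, stood at 6.36 to 10.3 and 11.8 to 23.2 CPM, with log2 differences of 1.04, 0.98 and 1.02 in blue light, GL and RL. These 3 genes too were picked for having no overlap, and SLC25A30 had almost the same difference in each light group.

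ERCC4, which cuts DNA during nucleotide excision repair, stood at 53.4 to 67.0 CPM in control and 70.2 to 97.1 in light. BCL2L11, which promotes apoptosis, stood at 9.70 to 10.5 and 11.1 to 17.2 CPM. The membrane-shaping adaptor BAIAP2L1 stood at 24.1 to 28.0 and 29.03 to 56.3 CPM. Their log2 differences were modest, at 0.45, 0.49 and 0.56. SVBP, DOK6 and CCDC158 complete the higher set. SVBP stood at 33.4 to 44.2 CPM in control and 45.1 to 80.7 in light, although the product text beside it in the table is that of TRIM25, so its identity is uncertain. CCDC158 was rare, at 0 to 0.305 CPM in control and 1.06 to 2.77 in light.

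Among the lower genes the largest fitted differences belonged to lens and rare transcripts. LGSN, which encodes lengsin of lens fibre cells, stood at 38.901, 128 and 69.9 CPM in control and between 1.52 and 38.883 CPM in light. Control 1 and the highest light library, RL 3, were therefore all but equal. LENEP, a protein of lens epithelial cells, stood at 7.31, 14.2 and 9.88 CPM in control and at 1.997 to 4.87 in light (log2 −1.64 ± 0.33). CCDC180 stood at 7.97 to 21.3 CPM in control and 0.102 to 7.73 in light. TREH, the enzyme that splits trehalose, stood at 5.27 to 10.8 and 0.166 to 4.44 CPM. Both were picked for lying below all controls in every light library, which CCDC180 did by a narrow margin.

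The other lower genes differed by less. EDNRA, the endothelin A receptor, stood at 13.6, 10.21 and 14.03 CPM in control and between 5.20 and 10.19 in light, so that control 2 nearly met the highest light library. CPT1B, which carries fatty acids into mitochondria, stood at 15.6 to 19.9 and 3.63 to 13.9 CPM. The adhesion receptor ADGRB2 stood at 29.3 to 36.1 and 14.95 to 26.5 CPM, with nearly equal log2 differences of −0.63, −0.60 and −0.63 in blue light, GL and RL. CCDC88C, which binds Dishevelled in Wnt signalling, stood at 6.65 to 7.18 and 1.28 to 5.03 CPM. GATAD1, which is found with chromatin carrying histone H3 methylated at lysine 4, stood at 52.3 to 59.8 and 27.0 to 51.7 CPM. UHRF1BP1, CLIP4 and RDM1 had log2 differences of −0.38, −0.41 and −1.09. No gene of this set differed among the 3 light groups at an adjusted p of 0.05 (edgeR, 0.417 to 0.999 over all 24). Nothing is read from this, since the genes were picked for a common sign and only 12 of 18171 genes (0.066%) passed that test.

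**Figure D2:**
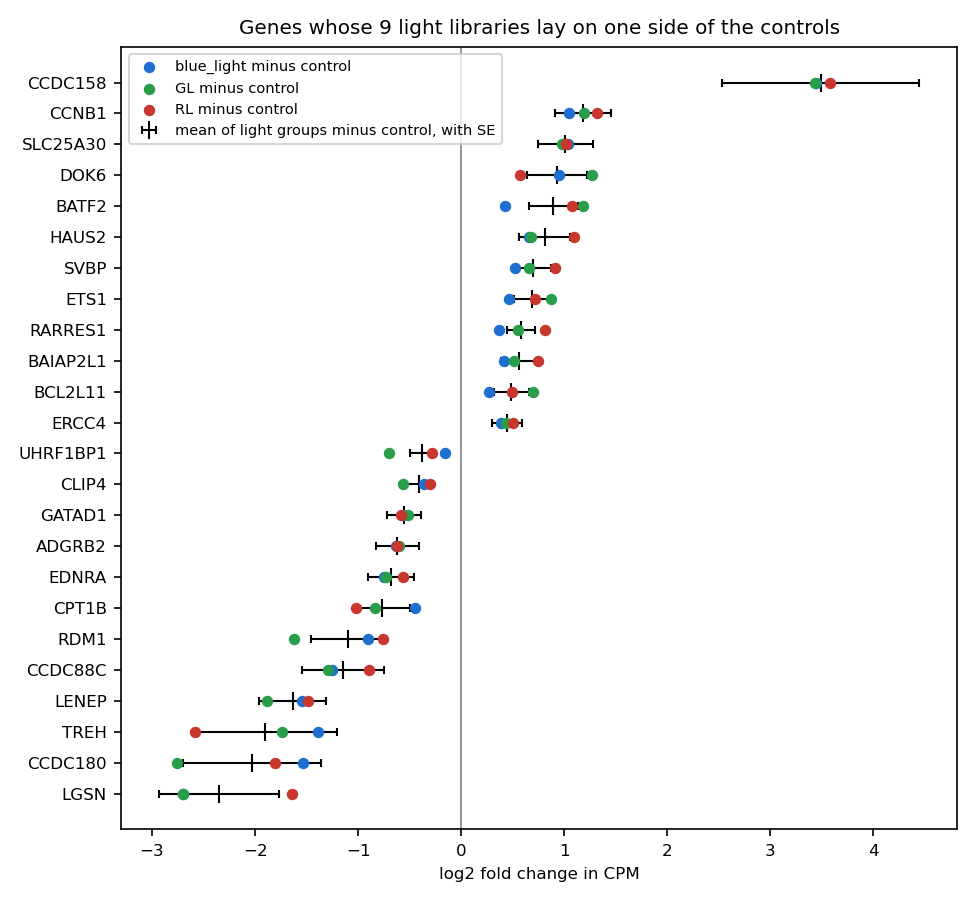
Log2 fold change against control in each light group (coloured points) and for the mean of the light groups (black, with SE) of the 24 genes with a symbol, a common sign and no overlap between light and control libraries. Every coloured point of a gene lies on one side of 0, since the genes were picked for that, and none passed the threshold over all genes by edgeR.

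Known gene groups were described next by 35 lists, which held 643 genes tested. By edgeR none of the 643 passed the threshold over all genes, and 37 (5.75%) had an unadjusted p below 0.05, beside 4.2% of all genes. Other tests of the same data called up to 6 of them. DESeq2 called CCNB1, LENEP, LPL, RPL39, TEAD1 and TRIM25, beside 55 of all 18171 genes. With array weights, limma-voom called LENEP, RPL23A, RPL39, TEAD1 and TRIM25, beside 19 of all 18171. On log2(FPKM + 1) or log2(FPKM + 0.1) limma called none of the members, beside 2 and 3 of all 18171. The median log2 difference of all genes tested was −0.01, and 47.8% of them were above 0.

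Cell cycle genes stood higher in light for 29 of the 37 tested, with a median log2 difference of 0.37. The sign was common to the 3 light groups for 18 higher and 2 lower members. After CCNB1, described above, UBE2C and CDK1 had the smallest p of the list. UBE2C, which loads ubiquitin for the destruction of cyclins, stood at 8.03, 5.20 and 5.08 CPM in control and 7.83 to 22.4 in light. CDK1 stood at 16.1, 9.80 and 8.93 CPM in control and 12.7 to 24.9 in light. In both genes control 1 lay inside the light range while control 2 and 3 lay below it. MKI67, a marker of dividing cells, spanned 7.46 to 55.2 CPM in control and 12.3 to 72.3 in light. The replication helicase genes did not share the direction: MCM7 stood at 55.5 to 72.7 CPM in control and 33.8 to 60.9 in light (log2 −0.32), and MCM2, MCM3, MCM4, MCM5 and MCM6 had no common sign.

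The mean log2 CPM of the cell cycle list was 3.85 in control 1, against 2.72 and 2.94 in control 2 and 3. Light libraries lay between 3.11 and 4.04. Control 1 is also the only control among the 5 libraries with many genes at low counts. With that set of libraries as a covariate the count of higher members was 27 of 37. The part of this difference among controls in the list's direction was not tested.

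Lens genes stood lower in light for 17 of 17 members tested, with a median log2 difference of −1.05, and 8 of them had a common sign. The list's median was 0.05 in blue light and −1.53 in both GL and RL, but 1 library set blue light apart. The list's mean log2 CPM was 7.42 in blue light 1, against 4.53 and 4.81 in blue light 2 and 3, 2.93 to 5.21 in GL, 2.59 to 5.47 in RL and 5.97 to 6.76 in control. Without blue light 1, the count of lower members was again 17 of 17. CRYAA stood at 2149 to 3249 CPM in control and 205 to 5202 in light, with blue light 1 the highest library of all. The water channel MIP of lens fibres stood at 20.6 to 38.0 CPM in control and reached 318 in light. In blue light 1 LENEP stood at 4.87 CPM, its highest light value, and LGSN at 10.02 CPM, and both genes had been picked for lying below all controls in every light library. The summed CPM of the list was 5682 to 9121 in control and 669 to 16442 in light. In tissue samples such as these, fewer lens cells and less lens RNA per cell cannot be told apart, and their part in the values was not tested.

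**Figure D3:**
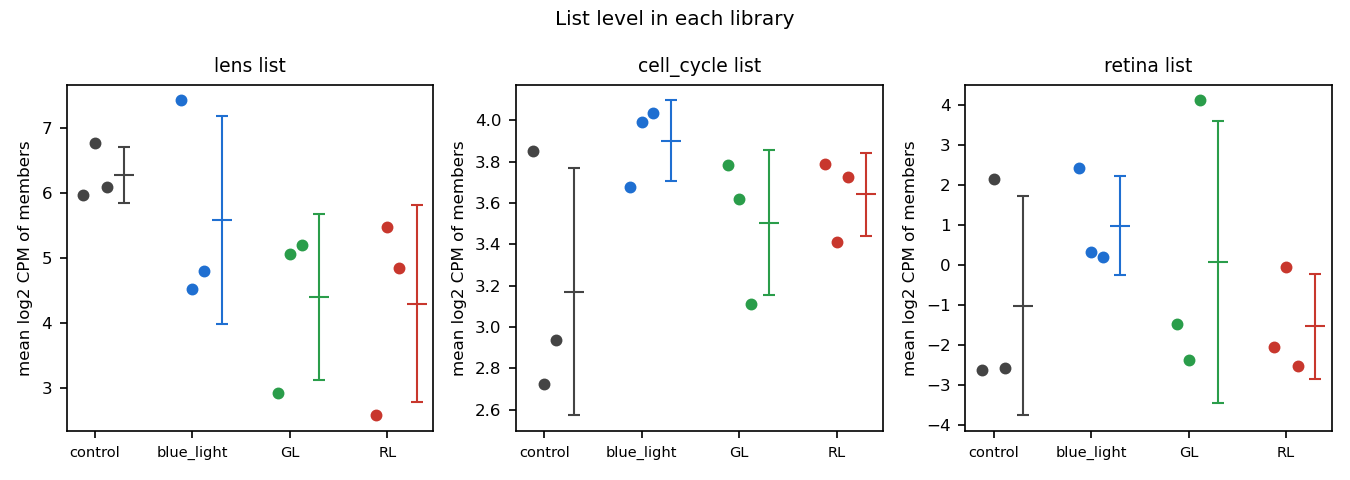
Mean log2 CPM of the members tested of the lens, cell cycle and retina lists in each library (points), with the mean and SD of 3 libraries (bars). Control 1 lies apart from the other controls in the cell cycle list, blue light 1 is highest in the lens list and GL 3 in the retina list.

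Markers of the cornea itself followed. Among epithelial genes 18 of 21 stood higher, but only 6 did so in each light group, and the median was 0.21 in the light mean and −0.03 in blue light. KRT12 had log2 differences of 0.07, 0.40 and 0.46 in blue light, GL and RL. GJB6, a gap junction protein, stood at 7.10 ± 2.40 CPM in control and 13.1 ± 3.86 in light (SD, n = 3 and 9; log2 0.88 ± 0.33). Among keratocyte genes 15 of 19 stood higher and 1 of them in every group, with LUM at 3957 ± 749 and 4702 ± 638 CPM. Among endothelial genes 9 of 12 stood lower with a median of −0.07. The tight junction gene OCLN stood at 53.5 ± 8.18 and 70.9 ± 9.68 CPM with nearly equal differences of 0.44, 0.41 and 0.37. PAX6, a master regulator of the developing eye, stood at 440 ± 25.6 and 397 ± 94.8 CPM.

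Clock genes stood lower for 15 of 20, with a median of −0.15, and 7 lower and 3 higher members had a common sign. ARNTL, which encodes the activator BMAL1, stood at 36.5, 23.6 and 25.3 CPM in control. Its light libraries ran from 35.3 to 50.9 CPM with a median of 44.0 (log2 0.63 ± 0.16, with 0.75, 0.48 and 0.64 in blue light, GL and RL). Only GL 3 lay below control 1. NPAS2, which can stand in for CLOCK beside BMAL1, had differences of 0.12, 0.35 and 0.32. PER1, a repressor of that activator, stood at 155 ± 49.8 CPM in control and 107 ± 31.1 in light (SD, n = 3 and 9). PER2 and the output gene HLF had differences of −0.44 and −0.34. NR1D1, which represses ARNTL, was low in blue light only (−1.19, against 0.15 in GL and −0.21 in RL), and the light sensor OPN3 differed in sign as well (−0.13, 1.02 and 0.75).

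Of the genes for making cholesterol and fatty acids, all 22 members tested stood higher in the light mean, with a median of 0.24. Only 8 were higher in each light group, and the medians were −0.07 in blue light, 0.22 in GL and 0.48 in RL. MSMO1, a sterol demethylating enzyme, had differences of 0.27, 0.03 and 0.89, and the RL libraries at 163.5, 229 and 170.3 CPM lay above all others. HMGCS1 had −0.06, −0.11 and 1.20. Whether the light groups differ for the list was not tested. MSMO1 did not pass a test of any difference among them over all genes (edgeR adjusted p = 0.350).

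Stress response genes were divided in direction. Heat shock genes were higher in 15 of 25 (median 0.02), unfolded protein genes in 10 of 19 (0.01), antioxidant genes in 17 of 26 (0.09) and p53 and DNA damage genes in 15 of 25 (0.07). DDIT3, a transcription factor of endoplasmic reticulum stress, stood at 36.5 ± 7.30 CPM in control and 26.1 ± 3.08 in light (SD, n = 3 and 9; log2 −0.49 ± 0.15). TXN, which encodes thioredoxin, stood at 86.4 ± 5.03 and 119 ± 32.7 CPM. Of the immediate early genes 10 of 21 stood higher, and the list's median was −0.20 in blue light, −0.54 in GL and 0.47 in RL.

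Interferon response genes stood higher in 20 of 25 (median 0.18). TRIM25, a ubiquitin ligase of antiviral signalling, stood at 21.8, 12.8 and 12.2 CPM in control. It stood at 35.6, 38.1 and 33.7 CPM in blue light, 34.3, 32.1 and 34.6 in GL and 20.04, 20.6 and 20.2 in RL. Blue light and GL lay above all controls, whereas RL lay just below control 1 (log2 0.89 ± 0.18, edgeR adjusted p = 0.428). Without control 1 its log2 difference was 1.22 and it passed the threshold (adjusted p = 0.0192). Inflammatory genes were higher in 10 of 16 (0.10). IL1B, a cytokine of early inflammation, was near the floor, at 0.198 ± 0.175 CPM in control and 0.101 ± 0.259 in light.

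Matrix and protease genes were mixed as well. Collagen and matrix genes stood higher in 18 of 29 (median 0.07), but 7 of the 9 with a common sign were lower, among them COL4A6 of basement membranes (568 ± 203 CPM in control, 430 ± 110 in light). ADAMTS9, which cleaves the proteoglycan versican, stood at 4.38, 2.40 and 3.17 CPM in control and at 4.05 to 9.11 in light, with log2 differences of 0.97, 0.99 and 0.99. Its relative ADAMTS1 had −1.02, −0.72 and −0.89. In the retinoid list 10 of 16 stood higher (median 0.05). ALDH1A2, which makes retinoic acid, stood at 303 ± 96.8 and 195 ± 54.3 CPM with differences of −0.50, −0.68 and −0.73, opposite in sign to RARRES1 and the CYP26A1 entry.

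Ribosomal protein genes stood lower for 52 of 65 entries by a median of only −0.07, and the count was 23 without control 2 and 34 without control 3. RPL39, a small protein of the large subunit, stood at 169, 297 and 295 CPM in control. Its libraries stood at 307, 248 and 149.8 CPM in blue light, 62.4, 57.6 and 48.4 in GL and between 64.1 and 141 in RL. Blue light overlapped the controls and GL and RL lay below them (log2 −1.22 ± 0.25, with −0.11, −2.18 and −1.36 in the 3 groups). The 11 entries annotated as this protein summed to 259 ± 74.9 CPM in control and 136 ± 94.8 in light, close to the values of the main entry alone.

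**Figure D4:**
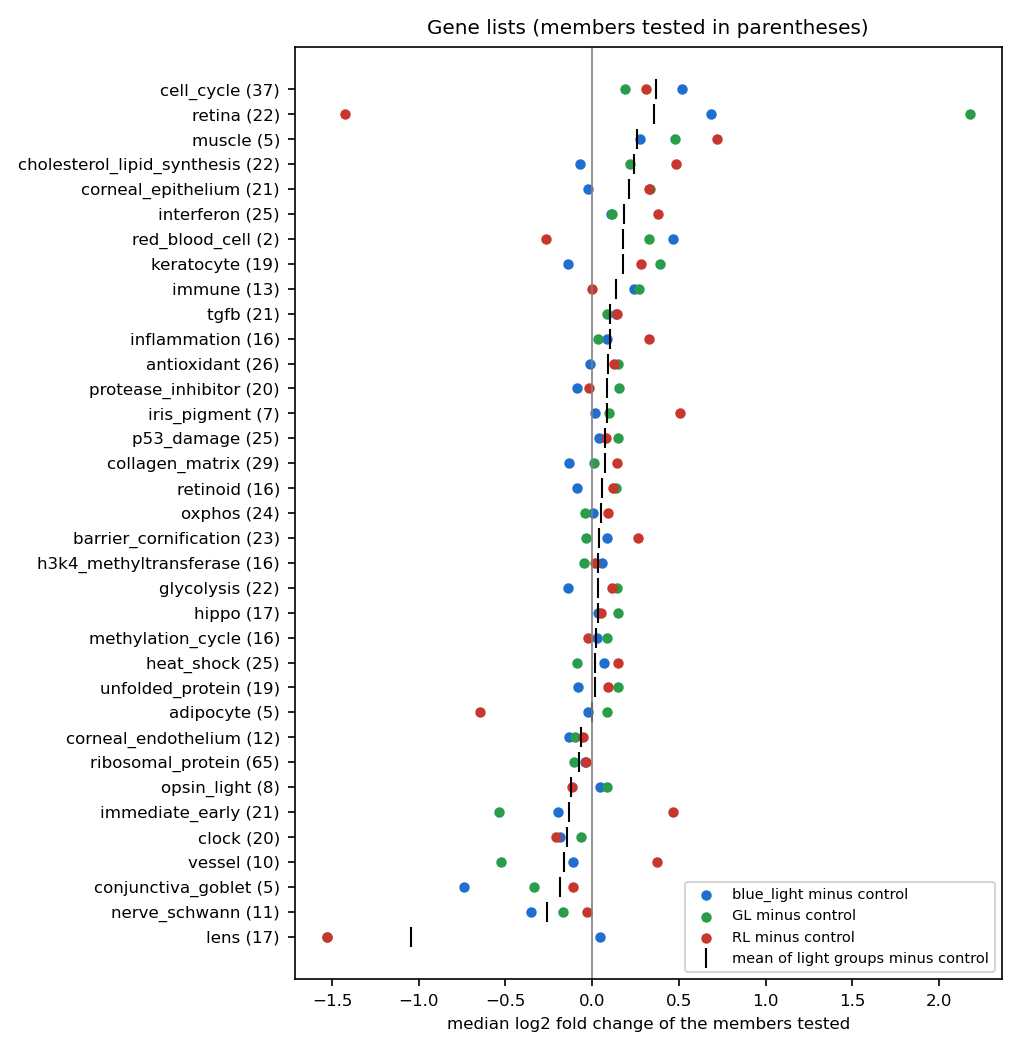
Median log2 fold change of the members tested in 35 gene lists, for each light group (coloured points) and for the mean of the light groups (black ticks). Lens is the lowest list at −1.05 and cell cycle the highest at 0.37. For lens and retina the points lie far apart, with GL and RL on the same point for lens, and 1 library (blue light 1 for lens, GL 3 for retina) stands well above the others of its group.

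For TEAD1 and HSPA13 a single light group stood apart. TEAD1, a DNA-binding factor of the Hippo pathway, had the smallest p among tested members of its list, with a mean difference of −0.93 ± 0.19 (edgeR adjusted p = 0.408). Its libraries stood at 197 to 232 CPM in control, at 203 to 259 in blue light and at 199 to 246 in GL, but at 40.7, 24.8 and 18.2 CPM in RL. Without RL the difference was 0.08. HSPA13, a chaperone of the HSP70 family, had differences of 0.15, −1.82 and 0.17, with a mean of −0.50. Both differed among the light groups (edgeR adjusted p = 0.000711 for TEAD1 and 0.0116 for HSPA13). That contrast leaves out the control mean, though the control libraries enter the fit and its spread. It was passed by 12 of 18171 genes (0.066%). YAP1 and WWTR1, the coactivators that bind TEAD factors, had mean differences of −0.25 and 0.30.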

How the data were processed

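RNA from 12 cornea libraries, made with a SMARTer mRNA-seq kit per the labels' protocols, was analysed from one table. The authors deposited whole-number estimated counts and FPKM values per gene, per the file headers. The counting tool is not given in the sources used here. The submitters' processing notes name GRCm38 and mm10, mouse builds, whereas the table lists rabbit sequences, so coordinates are given as deposited, without a build name. Of 29076 genes listed, 7628 had no count anywhere. Low counts piled up at multiples of about 3.79, taken as the counts per fragment, so counts are not raw fragments. Intervals and floors cover counting error only. Of 23890 numeric gene identifiers, 20171 were in a RefSeq table (assembly mOryCun1.1, used for names only) and 18461 had the same symbol.

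Counts (rounding changed 0 values) were fitted with edgeR 4.0.16 in R 4.3.3: TMM scaling, filterByExpr, 4 group means, glmQLFit and glmQLFTest of the light mean minus control, of each light group minus control and of any difference among light groups, with Benjamini-Hochberg adjustment over 18171 genes. The SE is the log2 value divided by the square root of F. CPM are TMM-scaled. The planned test was kept. Sums over copies and library measures used exact permutation over 220 splits, whose smallest p is 0.00455. The procedure was tested on simulated data, drawn without the step of about 3.79 counts per fragment. That test set no limit on false calls.

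Genes were named by rule: all called genes with a common sign, then 12 higher and 12 lower genes with a symbol, a common sign, no overlap, and 1 CPM or more, by smallest p, up to 3 members of each list and 19 fixed genes. LOC100346910 and further members of described lists are named outside the rule, after their values were seen. Members and lists were chosen with earlier results of these data known. Alternatives covered scaling, filters, DESeq2 1.42.0, limma 3.58.1 on log2(FPKM + 1) and log2(FPKM + 0.1), limma-voom, a replicate block, covariates, step-divided counts and omission of libraries or groups. Values of some genes are not reported here.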

Additional observations from a re-analysis of the deposited data

Results flagged for a closer look

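TEAD1 and HSPA13 differed among the 3 light groups by edgeR's test of any difference among blue light, GL and RL (adjusted p = 0.000711 and 0.0116), so that their light means do not describe each group. In TEAD1 the RL libraries stood at 18.2 to 40.7 CPM and the other light libraries at 199 to 259, and in HSPA13 the log2 difference from control was −1.82 in GL, against 0.15 in blue light and 0.17 in RL.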

How the results depend on the processing

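LOC100339782 kept its call in all 28 alternatives that tested it (log2 1.57 to 12.0, which depends on the pseudocount since controls are at 0), and was not tested among genes of mean FPKM 5 or more. LOC100344261 kept its call in 28 of 29 (log2 −2.45 to −1.99), the exception being omission of the 3 retinal libraries (adjusted p = 0.216). The count of 2 called genes, 1 higher and 1 lower, became 55 with DESeq2 (30 higher, 25 lower, 45 with a common sign) and 19 with limma-voom and array weights (4 higher, 15 lower, 18 with a common sign). It became 1 among genes of mean FPKM 5 or more (0 higher, 1 with a common sign) and 1 without the 3 retinal libraries (0 lower, 1 with a common sign). It was 4 without blue light or without GL (3 lower each) and 6 without RL (2 higher, 4 lower). With log2(FPKM + 0.1) 2 were higher, and with no filter 2 were lower. The main fit did not pair same-numbered libraries. Of 18 such pairs 3 had deviations correlated above 0.1, and 5 of 12 libraries correlated best with their own number. Correlations in same-numbered pairs ran from −0.0738 to 0.235, against −0.161 to 0.133 in pairs of unlike number. Such correlations cannot exclude a pairing, which the labels do not state. The replicate block gave 3 called genes, 2 of them lower. Without single libraries there were 2 to 9 called genes (1 to 7 higher, 1 to 5 lower, 2 to 9 with a common sign), with 9 without control 1, 7 without GL 2 and 4 without blue light 2 or RL 2. Among genes of mean FPKM 5 or more 3094 had a common sign, and cell cycle had 15, interferon 8 and nerve and Schwann 1 members in their main direction. The lists followed here were chosen after their values were seen. Ribosomal members lower were 27 without the retinal libraries and 23 to 57 without single libraries. The light minus control difference in genes at low counts ran from −202 to 559 without single libraries, with −202 without control 2, −71.2 without control 3, −8.83 without blue light 1 and −8.71 without blue light 2. The cause of these changes was not tested. Of 136 genes named by rule or after their values were seen, 24 turned sign in at least 1 alternative, none of them called. Depth limits the lowest levels: 3 fragments, the limit that a count of 0 allows, equal 0.176 to 0.263 CPM in a library of 10.8 to 17.1 M fragments.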

Other observations

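Nerve and Schwann cell genes, which mark the dense innervation of the cornea, stood lower in 7 of 11 members tested (median log2 −0.26). These 7 had a common sign, and so did 3 of the 4 higher members. Over all genes tested, 19.7% were lower and 18.8% higher with a common sign. Of the lower members, 2 are given here, and the 4 higher members are not. SCN7A, a sodium channel of glia, stood at 8.38 ± 2.06 CPM in control and 5.26 ± 2.25 in light (SD, n = 3 and 9), and L1CAM, an adhesion protein of axons, at 2.30 ± 0.548 and 0.907 ± 0.549. In SCN7A the light libraries ran from 2.73 to 9.58 CPM and the controls from 6.57 to 10.6. In L1CAM they ran from 0.173 to 2.01 and from 1.70 to 2.77 CPM, so both genes overlapped. The lowest L1CAM value lay below 0.176 CPM, the smallest floor of 3 fragments. The summed level of the list was 140 to 211 CPM in control and 142 to 263 in light, so the sums overlapped. LPL, a lipase that releases fatty acids from lipoproteins, stood at 5.46, 80.9 and 41.7 CPM in control and 1.16 to 13.1 in light (log2 −3.54 ± 0.55, edgeR adjusted p = 0.153). Control 1 lay inside the light range. Without control 1 the value was −4.05 and passed the threshold (adjusted p = 0.00203). The adipocyte list that holds LPL summed to 25.3 to 104 CPM in control and 15.5 to 33.3 in light. Of its defining markers, FABP4 and LEP were at 0 in all 12 libraries and ADIPOQ reached at most 0.965 CPM. CIDEC, a lipid droplet protein, stood at 1.24 to 3.27 CPM in control and 0 to 1.61 in light, and the lipase LIPE at 13.7 to 20.8 and 12.2 to 21.9 CPM. The part of adipocyte RNA in the LPL values was not tested.

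LOC100339782 was 1 of 5 genes with no count in any control and a count in every light library (0.0275% of genes tested). The other 4 were rare, at light means of 0.484 to 1.21 CPM, and none passed the threshold by edgeR. DESeq2, which called 55 of all 18171 genes, called all 4 (adjusted p = 0.000137 to 0.00231). On log2(FPKM + 0.1) limma called LOC108176618 among them (adjusted p = 0.00566). These 4 were the entries annotated as VPS4A, a factor of membrane scission, and as RPC9, a subunit of RNA polymerase III, and 2 uncharacterised entries. No gene had the opposite pattern. Copies of RPL23A, a ribosomal protein, stood on opposite sides of control: the named entry stood at 478, 28.7 and 32.9 CPM in control and 433 to 1085 in light, while the copy LOC108177974 stood at 906 ± 239 and 232 ± 219 CPM (SD, n = 3 and 9). The 48 entries with this annotation summed to 1412 ± 89.6 and 1293 ± 179 CPM. Neither passed the edgeR threshold with all libraries. Without control 1 the RPL23A entry did (log2 4.65, adjusted p = 0.00102, against 2.09 with it). The copies were picked after their values were seen.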
